A study of Eutrema with 12 samples.

Results

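COR15 is a cold-regulated gene that was represented on a cDNA microarray of Yukon Thellungiella salsuginea, and its transcript level in cauline leaves of field plants was followed here against that of cabinet plants. It was 1 of the 4279 cDNA identifiers of the array and 1 of the 28 that carry a gene name. Its members are all spots named COR15, which were 9 spots on each of 12 arrays, and no spot was left out. The gene was chosen by its measured field to cabinet ratios in the 2 years, so that these ratios are given as a description, without a test.

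In Arabidopsis, COR15 proteins are small, hydrophilic proteins of the chloroplast stroma that belong to the late embryogenesis abundant type and help to stabilise membranes when cells lose water in freezing. Their genes are targets of the CBF/DREB1 transcription factors, which are themselves switched on by cold, and they also respond to drought and abscisic acid (ABA). Arabidopsis has a pair of neighbouring, closely related copies, COR15A and COR15B. The name on the array does not tell which copy its cDNA resembles, and transcripts of near-identical copies would bind to the same spots.

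The field samples were cauline leaves of individual plants of the Yukon ecotype taken from their habitat in the Yukon Territory, 3 in 2003 and 3 in 2005, without any applied treatment. The comparison RNA came from cauline leaves of untreated, 12 week old plants of the same ecotype that were raised in a controlled environment chamber with a long day and nights cooler than the days. The study describes the 2003 collection as following a dry season and that of 2005 as following a wetter one. Each plant was hybridised on 2 arrays with the dyes exchanged, array 1 with the field RNA in Cy5 and array 2 with it in Cy3, and the plants are called A, B and C here as in the sample titles, although the design text calls the last plant of 2005 D. Field mRNA went through 1 round of amplification and cabinet mRNA did not, so that amplification and growth place cannot be told apart in any ratio. The sources used here do not state whether the plants were compared with the same cabinet RNA. Leaf identity was not checked against marker genes, because the files pair the clones with no gene. In whole leaves, fewer cells that hold a transcript and less of it per cell cannot be told apart.

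In 2005 the COR15 signal of the field plants stood well above that of the cabinet plants on every array, and in 2003 its excess was smaller, clearest in plant A and slight in plants B and C. The log2 ratio of field over cabinet, in which 1 stands for a doubling, was 2.89 ± 0.94 in 2005 (SD, n = 3 plants), or 7.39-fold. It was 0.76 ± 0.59 in 2003 (SD, n = 3 plants), or 1.69-fold. The plants of the 2 years did not overlap, with 0.36 to 1.44 in 2003 and 1.83 to 3.64 in 2005. The share of all cDNAs whose plants separate by year in this way was not counted.

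On the individual arrays, plant A of 2003 gave log2 ratios of 1.24 and 1.63 for array 1 and array 2, respectively. Plant B of 2003 gave 0.79 and 0.18, and plant C of 2003 gave 0.24 and 0.47. Plant A was thus the highest of its year on both arrays, while the arrays of plants B and C lay among each other. In 2005, plant A gave 2.48 and 3.90, the widest gap between the arrays of any plant (1.42). Plant B gave 1.86 and 1.79, and plant C gave 3.68 and 3.60. The lowest array of 2005 was above the highest array of 2003, and the dye made no difference of constant sign, since array 2 was the higher in 3 of the 6 plants.

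**Figure D1:**
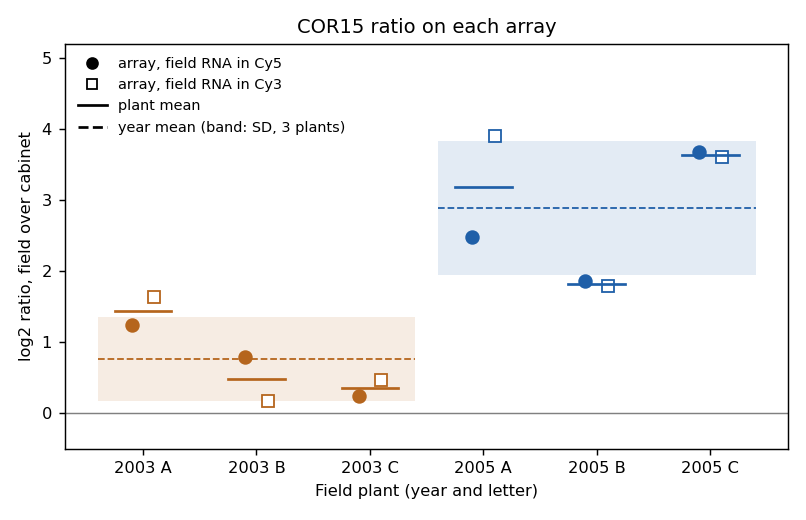
Log2 ratio of COR15, field over cabinet, for each of the 12 arrays (filled circles, field RNA in Cy5; open squares, field RNA in Cy3), with the mean of each plant (short line) and the mean and SD of each year over 3 plants (dashed line and band). The arrays of 2003 lie between 0.18 and 1.63 and those of 2005 between 1.79 and 3.90.

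From the highest to the lowest, the plants came in the order 2005 C (12.5-fold), 2005 A (9.13-fold), 2005 B (3.55-fold), 2003 A (2.71-fold), 2003 B (1.40-fold) and 2003 C (1.28-fold). The first and second of these, and the last and the one before it, did not differ beyond the spread of their own arrays. The step from 2005 B to 2003 A was the one between the years, and it was narrow, with array values of 1.79 to 1.86 against 1.24 to 1.63. Within each year the highest and the lowest plant lay farther apart than these 2 plants of different years did. The difference of the year means, 2005 minus 2003, was 2.13 on the log2 scale (standard error 0.64), or 4.37-fold.

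With the background correction and normalization used here, COR15 varied between plants more than most cDNAs. Its SD of 0.59 in 2003 was above that of 73.1% of all cDNAs, whose median SD was 0.37. In 2005 its SD of 0.94 was above that of 96.7% of them, against a median of 0.24. With the local background subtracted and nothing else done, the SD of COR15 was 0.09 in 2003 and 1.00 in 2005. Its place among all cDNAs was not computed for these values, and SDs were not compared among cDNAs of like ratio. The plant ratios of 2005 ranked 15th, 171st and 18th among the 4279 cDNAs for A, B and C, and those of 2003 ranked 252nd, 1160th and 1048th. By the year mean, 17 cDNAs had a higher ratio than COR15 in 2005 and 553 in 2003.

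The 2 channels were then set apart, because a ratio can move through either of them. Before any normalization, the mean COR15 intensity of the field channel in 2003 was 598 and 480 for plant A, 658 and 695 for plant B, and 429 and 527 for plant C, in scanner units. That of the cabinet channel on the same arrays was 447 and 317, 447 and 576, and 415 and 412. Both channels were dim and close together in 2003. In 2005 the field channel read 2211 and 3033 for plant A, 1403 and 1426 for plant B, and 4429 and 2945 for plant C. The cabinet channel of 2005 read 957 and 374, 905 and 491, and 665 and 338. The field channel was therefore brighter in 2005 than on any array of 2003, while the cabinet readings of the 2 years overlapped.

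The signal was also read relative to the local background of each spot. The field signal was 3.74 to 7.07 times its background on the arrays of 2003 and 6.71 to 32.3 times on those of 2005, so that on this scale array 1 of plant B of 2005 was below array 1 of plant A of 2003. The cabinet signal was 3.36 to 5.38 times its background in 2003 and 2.09 to 4.90 times in 2005. No COR15 spot reached the maximum of the scanner in either channel.

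After normalization within and between arrays, the field level of COR15 was 10.9 ± 0.67 in 2005 and 8.24 ± 0.75 in 2003 on the log2 scale (SD, n = 3 plants). The cabinet level on the same arrays was 8.0 ± 0.34 in 2005 and 7.48 ± 0.46 in 2003. In the order of levels, the field plants of 2005 (10.2 to 11.5) stood apart from all the rest. The field plants of 2003 (7.41 to 8.86) overlapped with both cabinet groups, at 7.73 to 8.38 on the arrays of 2005 and 7.05 to 7.96 on those of 2003. In 2005 the field level was thus 2.65 and the cabinet level 0.52 above that of 2003, both on the log2 scale, while the median unnamed spot differed by -0.52 and -0.37 in the same channels.

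The cabinet channel was near or below the level of the unnamed spots of the arrays, which bears on how exactly any COR15 ratio can be read. Each array held 87 such spots, counted where the name was empty, G or n/a, and what was printed there is not stated. The normalized cabinet level of COR15 lay below the median of these unnamed spots on 5 of 6 arrays of 2003 and on 4 of 6 arrays of 2005. The field level lay below it on 4 of 6 arrays of 2003 and on 0 of 6 arrays of 2005. Unnamed spots were not dark throughout: on array 2 of plant C of 2003 their median exceeded the local background by 1878 units in the field channel and 1970 units in the cabinet channel, against 397 and 290 units for COR15. When the cabinet level was raised to the unnamed median of the same array wherever it was lower, the field plants of 2005 stood 5.96-fold (A), 3.17-fold (B) and 9.48-fold (C) above it. Plant A of 2003 then stood 1.66-fold above, and plants B and C of 2003 lay below it. On the arrays of those 2 plants the COR15 field level was itself below the unnamed median of its channel. Raising the cabinet level therefore says little about their ratio of field over cabinet.

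**Figure D2:**
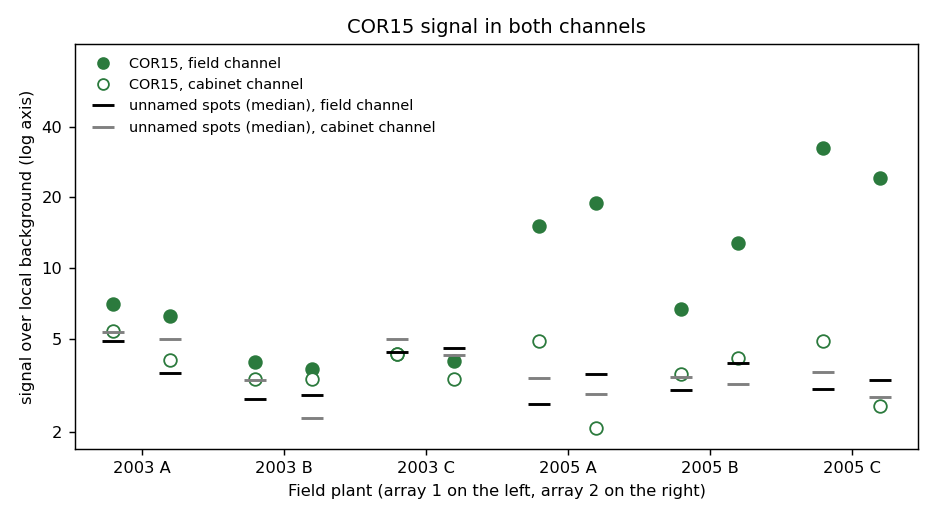
COR15 signal divided by local background for each array (log axis), in the field channel (filled circles) and the cabinet channel (open circles), with the median of the 87 unnamed spots of that array in the field channel (black bars) and the cabinet channel (grey bars). In 2005 the field signal lies at 6.71 to 32.3 and above the unnamed spots on every array, while in 2003 it lies at 3.74 to 7.07, and on array 1 of plant C the field and cabinet circles coincide.

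The unnamed spots also served as a zero for the ratio. Their median log2 ratio was between -0.12 and 0.29 on the 12 arrays. The COR15 ratio was above the 95th percentile of the unnamed spots on 6 of 6 arrays of 2005 and on 3 of 6 arrays of 2003, which were both arrays of plant A and array 1 of plant B. Taken relative to the unnamed median, COR15 stood at 1.42 (A), 0.27 (B) and 0.22 (C) in 2003 and at 3.28 (A), 1.74 (B) and 3.58 (C) in 2005, on the log2 scale. In 2003 the ratio of plants B and C thus exceeded the median ratio of the unnamed spots by little beside that of plant A.

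For plant A of 2003 the ratio also depended on the background correction and normalization. With the local background subtracted and nothing else done, its log2 ratio was 0.39, against 1.44 in the main values. Those used another background correction (normexp) and then loess, a curve that removes the trend of the ratio with brightness on each array. The steps were not set apart for single plants. The 2003 mean was 0.33 with subtraction alone, 0.54 with subtraction and loess, and 0.76 in the main values. The corresponding values were 0.37 and 0.49 for plant B and 0.23 and 0.36 for plant C of 2003. In 2005 they were 2.66 and 3.19 (A), 1.31 and 1.83 (B), and 3.28 and 3.64 (C). With subtraction alone the 3 plants of 2003 thus lay close together, and those of 2005 remained above them.

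The 9 spots of COR15 stood at 3 positions of the array, each a run of 3 neighbouring spots, 1 position in one spotting block and the others in the block next to it. Neighbouring spots gave almost the same ratio, with a median SD of 0.13 (log2 ratio). Positions of the same array differed more, with a median SD of 0.61 in 2003 and 0.59 in 2005. The files do not state whether the positions carry the same clone. Of the 54 spots of each year, 54 had a ratio above 0 in 2005 and 44 in 2003, and the spot ratios spanned 1.10 to 4.62 in 2005 and -0.36 to 3.28 in 2003.

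In 2003 the excess over the cabinet plants was carried mainly by position 1. This position had the highest ratio on 6 of 6 arrays of 2003. Its log2 ratio was 2.84, 0.99 and 0.94 for plants A, B and C. Position 2 gave 0.95, 0.27 and 0.03, and position 3 gave 0.53, 0.20 and 0.09. The year means were 1.59 ± 1.08 at position 1, 0.42 ± 0.48 at position 2 and 0.27 ± 0.23 at position 3 (SD, n = 3 plants). At positions 2 and 3 the ratio of plants B and C was thus near 0, and without position 1 the 2003 mean was 0.35. On array 2 of plant A, the field intensity at position 1 was 893 against 276 and 272 at the other positions, where the cabinet channel read 336, 299 and 317.

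In 2005 all 3 positions stood above the cabinet plants in every plant. Position 1 gave log2 ratios of 3.68, 2.02 and 3.96 for plants A, B and C. Position 2 gave 2.89, 1.45 and 2.68, and position 3 gave 3.01, 2.01 and 4.28. Position 2 was the lowest on 5 of 6 arrays. The exception was array 1 of plant A, where position 3 was the lowest at 1.92 and its cabinet intensity was 1691, against 579 and 600 at the other positions of that array. On array 2 of the same plant, with the dyes exchanged, position 3 gave 4.09 and its cabinet intensity was 417. The arrays of this plant differed at the other positions as well, with 3.20 against 4.16 at position 1 and 2.32 against 3.46 at position 2, and the gap was widest at position 3.

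Between the years, the difference 2005 minus 2003 was 1.63 at position 1, 1.92 at position 2 and 2.83 at position 3 on the log2 scale. The plants of the 2 years overlapped at position 1, where plant A of 2003 (2.84) was above plant B of 2005 (2.02). They did not overlap at position 2 or position 3. These positions are part of the ratios by which COR15 was chosen, and the share of all cDNAs that separate likewise was not counted. The 12 other gene-named cDNAs that were printed as 3 such runs had a median SD between positions of 0.14 in 2003 and 0.15 in 2005, for year means. COR15 had 0.72 and 0.48, and 2 of the 12 were wider in 2003 and 0 in 2005.

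**Figure D3:**
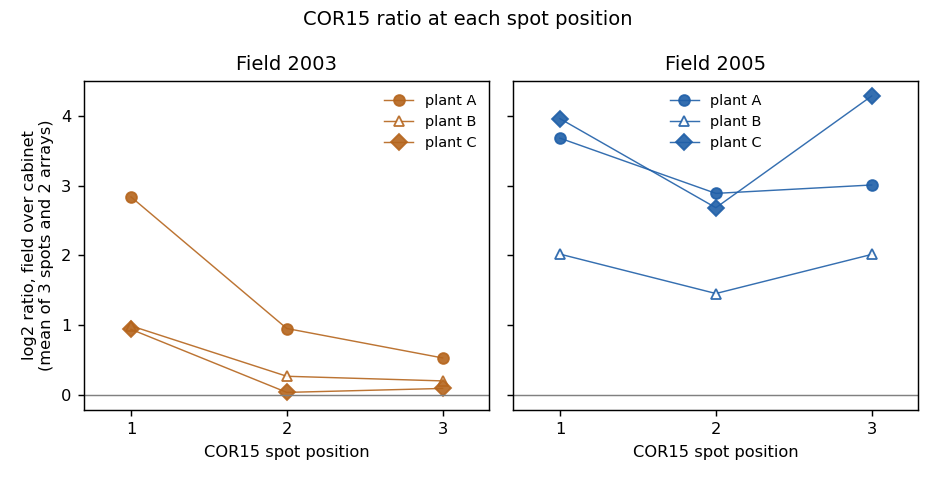
Log2 ratio of COR15 at each of its 3 spot positions, each point the mean of 3 neighbouring spots and 2 arrays of a plant, for the field plants of 2003 (left) and 2005 (right). In 2003 position 1 lies highest in each plant, at 0.94 to 2.84, and positions 2 and 3 lie at 0.03 to 0.95, while in 2005 the lowest point is 1.45, at position 2 of plant B.

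The other gene-named cDNAs of the pathways around COR15 were then read beside it. They were 9 in number: 3 named for CBF/DREB1 regulators (CBF, CBF1 and DREB1A), 3 for cold and dehydration response proteins (DEHDRIN, DEHYDRIN and RD20) and 3 for enzymes of ABA synthesis (AA03, AAO3 and ZEP). They were tested with limma across all 4279 cDNAs, and they were called where the p adjusted after Benjamini and Hochberg was under 0.05 and the change reached 1.5-fold. In 2003, 1 of the 9 was called, higher in the field, against 17.4% of all cDNAs called in either direction and 10% called higher. In 2005, 2 of the 9 were called, both higher, against 31.5% of all cDNAs called in either direction and 16.4% called higher. In the difference between the years 0 of the 9 were called, against 1.59% of all cDNAs, and 1 of the 9 had an unadjusted p under 0.05 in limma, as had 27.2% of all cDNAs. Against these shares the counts are no result about the list. The median log2 ratio of the 9 was 0.02 in 2003 and 0.05 in 2005, beside 0.00 and -0.03 over all cDNAs. That of 2005 minus 2003 was 0.03, beside -0.02 over all cDNAs.

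Of the regulators that activate COR15 in Arabidopsis, none was called in either year or between the years by limma, and 0 of the 3 had an unadjusted p under 0.05 in any of these comparisons, beside 37.3% (2003), 46.4% (2005) and 27.2% (2005 minus 2003) of all cDNAs. CBF had log2 ratios of -0.04, -0.01 and -0.26 for plants A, B and C of 2003 and 0.01, 0.26 and 0.18 for those of 2005, with limma adjusted p = 0.60 in 2003 and 0.40 in 2005. CBF1 had 0.04 ± 0.17 in 2003 and 0.01 ± 0.13 in 2005, and DREB1A had -0.09 ± 0.09 and 0.05 ± 0.10 (SD, n = 3 plants). All 3 were no brighter than the unnamed spots in either channel, as were 154 of the 4279 cDNAs. A decrease or a small rise in their transcripts could therefore have gone unseen at this signal.

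Of the response proteins, DEHYDRIN, named for the hydrophilic proteins that accumulate as tissue dries, was close to 0 in all plants. Its log2 ratio was 0.02 ± 0.06 in 2003 and -0.08 ± 0.07 in 2005 (SD, n = 3 plants, limma adjusted p = 0.93 and 0.63). DEHDRIN, which may be a variant spelling of the same name, lay between -0.10 and 0.10 in every plant and was no brighter than the unnamed spots.

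RD20 encodes a calcium-binding protein of lipid droplets in Arabidopsis that is induced by dehydration and ABA, and its transcript was called higher in field plants of 2003 and of 2005. Its log2 ratios were 2.74, 3.12 and 1.51 in plants A, B and C of 2003 and 1.29, 0.82 and 0.93 in those of 2005. The year means were 2.46 (SE 0.30, limma adjusted p = 0.0078) and 1.01 (SE 0.30, adjusted p = 0.041), respectively. All plants of 2003 were above all plants of 2005, which is the order opposite to that of COR15. Here too the share of all cDNAs with such a separation was not counted. The difference of 2005 minus 2003 was -1.44 and did not pass the threshold (SE 0.43, limma adjusted p = 0.10). When single plants were left out, it passed only without plant C of 2003 (-1.92, limma adjusted p = 0.040). It did not pass without plant A (limma adjusted p = 0.20) or B (0.15) of 2003, nor without A (0.17), B (0.30) or C (0.24) of 2005. The call of 2005 was lost without plant A (adjusted p = 0.17), B (0.12) or C (0.13) of that year in limma, and also with loess run within each spotting block (0.073).

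ZEP, which is zeaxanthin epoxidase, an enzyme of the xanthophyll cycle and of the first steps towards ABA, was higher in the field in 2005. Its log2 ratios were 0.89, 1.24 and 0.94 for plants A, B and C of 2005 (mean 1.02, SE 0.24, limma adjusted p = 0.020). They were -0.32, 0.77 and 0.82 in 2003 (mean 0.42, SE 0.24, limma adjusted p = 0.25). Plant A, the plant of 2003 with the highest COR15 ratio, was the one with the lowest ZEP ratio. Once plant A was dropped, ZEP was called in 2003 (0.80, limma adjusted p = 0.036). Dropping plant B instead gave no call (0.25, limma adjusted p = 0.60), and neither did dropping plant C (0.23, limma adjusted p = 0.62). ZEP was called for 2003 in only 1 of 16 other settings. The 2005 call was lost without plant A (adjusted p = 0.070), B (0.12) or C (0.083) of 2005 in limma. The difference between the years was 0.60 and was not called (SE 0.34, limma adjusted p = 0.31). AA03 and AAO3, spelled like the aldehyde oxidase of the last step of ABA synthesis, had year means between -0.02 and 0.23 and were not called, and both were no brighter than the unnamed spots in either channel.

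**Figure D4:**
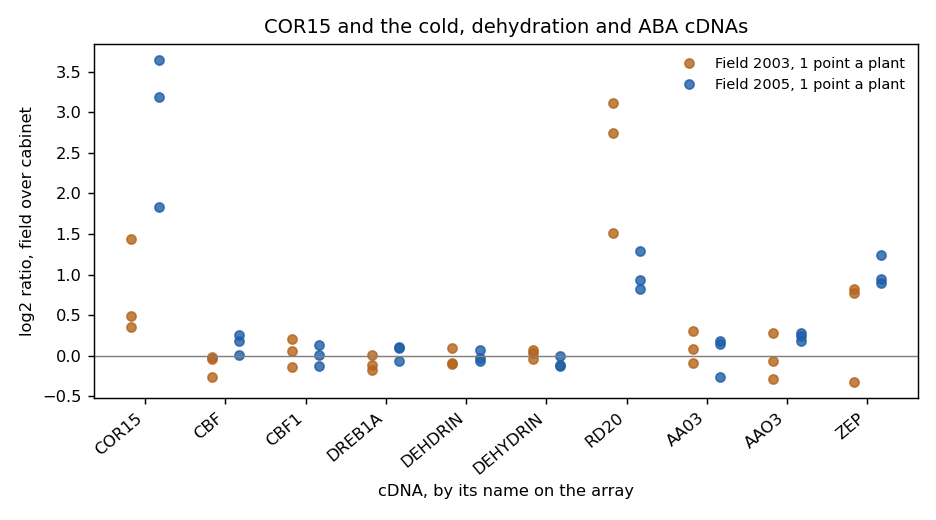
Log2 ratio of field over cabinet for COR15 and the 9 cold, dehydration and ABA cDNAs, each point 1 field plant of 2003 or 2005. COR15 reaches 3.64 in 2005 and RD20 reaches 3.12 in 2003, while CBF, CBF1, DREB1A and both dehydrin names stay within 0.26 of 0 in all 6 plants.

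Finally, all cDNAs were ranked by how near their 6 plant log2 ratios lay to those of COR15, by Euclidean distance, the measure that the study used to cluster transcripts. The 6 points share arrays, and possibly cabinet RNA, and a cDNA that differs between the years in the same direction will come near for that alone. None of the 4278 other cDNAs came closer than 1, where the distance of COR15 from 0 in every plant is 5.40. The nearest were 2 clones, whose genes are not named in the files. Clone sc3_c08 lay at a distance of 1.54 (Pearson's r = 0.86 over 6 plants), with log2 ratios of 2.02, 0.87 and 0.30 in plants A, B and C of 2003 and 3.50, 1.73 and 2.3 in those of 2005. Clone sc3_c07 lay at 1.58 (r = 0.92 over 6 plants), with 1.14, 0.32 and 0.29 in 2003 and 3.53, 3.32 and 3.73 in 2005. In both clones plant A was the highest of 2003 and plant B the lowest of 2005, as for COR15, by which they were picked.

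The nearest gene-named cDNAs were much farther away, with 176 clones before the first of the 27. SPS, sucrose phosphate synthase of sucrose synthesis, lay at 3.58 (r = 0.74 over 6 plants), with ratios of 0.15, 0.44 and 0.07 in 2003 and 1.24, 1.30 and 0.99 in 2005. RAFL28-19G15, whose name gives no function, lay at 3.71 (r = 0.70), with year means of 0.12 and 1.16. ZEP lay at 4.04 (r = 0.23), with the ratios given above. All 3 had the higher mean in 2005, as COR15 had. Their deviations from the year means ran against those of COR15, at r = -0.52 (SPS), -0.68 (RAFL28-19G15) and -0.73 (ZEP). For the clones this r was 0.71 (sc3_c08) and 0.81 (sc3_c07). Since they were picked on the same 6 ratios, it is no separate evidence of likeness. By r over 6 plants these clones ranked 64th and 13th, respectively.

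**Figure D5:**
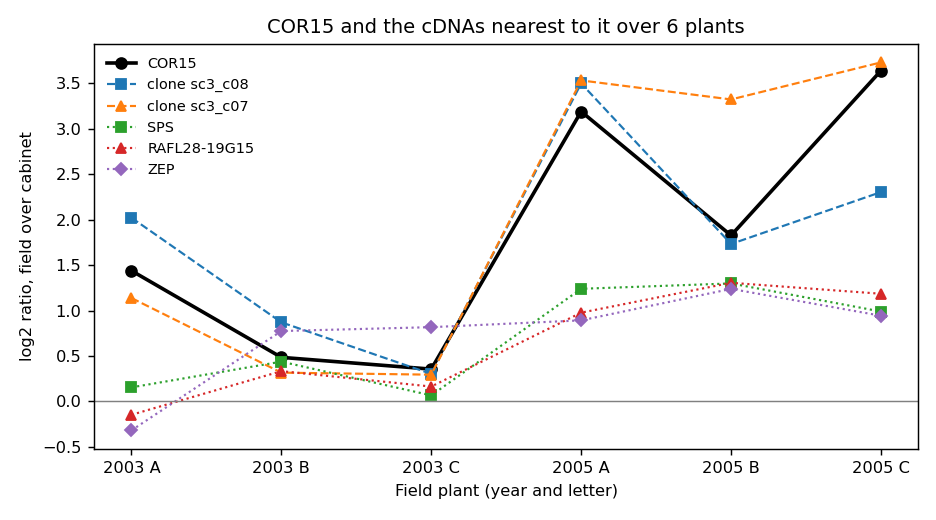
Log2 ratio of field over cabinet in each field plant for COR15 (thick black line), the 2 nearest clones (dashed) and the 3 nearest gene-named cDNAs (dotted) by Euclidean distance over the 6 plants. In plant A of 2005 the clones lie at 3.50 and 3.53 and COR15 at 3.19, while SPS, RAFL28-19G15 and ZEP lie at 0.89 to 1.24.

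The arrays as a whole set the frame for these values. Each held 14688 spots in 48 spotting blocks, 13449 of them cDNA spots. The signal of the median cDNA spot exceeded its background 8.26-fold to 30.4-fold, and 31 to 400 cDNA spots per array were at the maximum of the scanner. The headers of the 2003 arrays carried 4 dates and those of the 2005 arrays 2 other dates, with 0 shared. The headers call them only a date, without the step that was done then. Header date and year therefore cannot be told apart in the difference between the years.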

How the data were processed

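Cauline leaf RNA of 6 field plants was compared with cabinet RNA on 12 arrays with 2 colours. Plants were grouped by the year in the sample titles, and the ratio was set from the dyes in the labels and file headers. The authors deposited QuantArray intensity values of spots and local background for both channels, on a linear scale without background subtraction. Other deposited columns (background SD) were not needed for a value given here. The authors also deposited processed values on a log10 scale, whose normalization is not given in the sources used. They correlated with the log10 scanner ratios at r = 0.93 to 0.99, their column medians were between -0.02 and 0.01, and they entered as an alternative.

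The normexp method (offset 50) of limma 3.58.1, run in R 4.3.3, corrected the background, and loess normalized each array, with control and unnamed spots at weight 0. The mean was taken over the spots of each cDNA and then over both arrays of the plant, so that 1 plant is 1 replicate. Channel levels came from the same values after Aquantile scaling. No pseudocount or filter on dim spots was used. COR15 is given as means and SD over plants. List members were tested on a mean for each year (4 residual degrees of freedom, 2.66 prior), with adjustment over 4279 cDNAs. The number of arrays limits the precision.

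Deviations from the year means correlated across cDNAs at r = 0.58 (A), 0.24 (B) and 0.31 (C) between plants of the same letter, and at -0.33 to 0.05 between other letters, so the letter entered a further fit as a block, although the labels name no link between the years. The gene, its list and the alternatives were chosen with earlier results of these data known. The named genes were COR15, the called list members with CBF, CBF1, DREB1A, DEHYDRIN, RD20 and ZEP, and the 3 gene-named cDNAs and 2 clones nearest to COR15. The limma step was tested on simulated plant ratios, drawn independently from the fitted spread. The background, loess and array steps were not simulated.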

Additional observations from a re-analysis of the deposited data

Results flagged for a closer look

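Among the 9 cold, dehydration and ABA cDNAs, CBF was the one whose plants lay on opposite sides of 0 in the 2 years, below it in 3 of 3 plants of 2003 and above it in 3 of 3 plants of 2005. Plants A and B of 2003 (-0.04 and -0.01) and plant A of 2005 (0.01) were almost at 0, so that their signs carry little weight. The share of all cDNAs with such a split was not counted. The difference of 2005 minus 2003 was 0.25 on the log2 scale (limma adjusted p = 0.42, not passed), and over the other settings it ran from -0.00095 to 0.32 with limma adjusted p from 0.21 to 0.998. CBF was no brighter than the unnamed spots in either channel. Groups of 3 plants are too small for a search for single outlying plants.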

How the results depend on the processing

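Over 24 other settings, the COR15 log2 ratio of 2005 stayed between 2.37 and 3.42, within 1 SD of its value in each. That of 2003 lay between -0.44 and 1.00 and was within 1 SD in 23 of the 24. The exception was raising the cabinet level to the unnamed spots, which turned the 2003 mean to -0.44 and moved 2005 minus 2003 from 2.13 to 2.93, since that setting replaces cabinet values below the unnamed median. Otherwise the difference lay between 1.75 and 2.66. Some of these settings could not move a year mean of COR15. They were leaving out saturated spots, the plant letter as a block, and leaving out a plant of the other year. Settings chosen after seeing the data were the ratio relative to the unnamed spots (0.64 in 2003, 2.87 in 2005) and background subtraction with no normalization (0.33 and 2.42). The 2003 mean was 0.35 without spot position 1 and 0.42 without plant A of 2003, against 0.76. Leaving out each plant gave 0.42 to 0.96 in 2003, 2.51 to 3.42 in 2005 and 1.75 to 2.66 for the difference.

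The count of list members called in 2003 was 1 to 2 when each plant was left out, that of 2005 was 0 to 2 and that of 2005 minus 2003 was 0 to 1. It was 1 in 2005 with print-tip loess, and 1 in 2005 minus 2003 with the 12 arrays as independent replicates. The cause of these changes was not tested, beyond the smaller or larger number of samples. With the plant letter as a replicate block, the counts were 1, 2 and 0, as without it, so that the pairing changed no call of a list member. The COR15 means stayed at 0.76 and 2.89, which this balanced block cannot move. Over all cDNAs the calls between the years were 68, against 353 with the block and 0 to 1241 over all settings, those of 2003 were 743 against 382 to 1240, and those of 2005 were 1349 against 452 to 1728. The cabinet signal of COR15, near or below that of the unnamed spots, limits how its ratio can be read.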
